A study of Homo sapiens with 5 samples.

Results

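PHF8 was mapped at 10 genes of pericellular proteolysis: MMP2 and MMP11, which are secreted matrix metalloproteinases, 5 membrane-type enzymes (MMP14, MMP15, MMP16, MMP17 and MMP24) and the inhibitors TIMP2, TIMP3 and TIMP4. These genes were chosen by their PHF8 peaks in the same lists, set against the unbound MMP cluster of chromosome 11, so their peak counts and enrichments are given as a description and were not tested. They are 10 of 64485 genes in the annotation, of which 20176 are protein-coding. A gene counted as bound when a peak lay within 1 kb of any of its annotated transcription start sites (TSSs), up- or downstream, in all 3 replicates. The window and the need for all 3 replicates follow the study, but the TSSs are those of every GENCODE transcript, so the target genes here need not be the study's.

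PHF8-bound chromatin of SKMEL-147, a human melanoma cell line, was pulled down with an antibody and sequenced (ChIP-seq) in replicates A, B1 and B2. The labels name no genotype, treatment or separate culture for these samples, so the spread between replicates may be technical. The series holds 5 samples, and its 2 input libraries (A and B) enter only through the enrichment values of each peak. A peak list holds no expression level, so the identity of the cells was not checked against marker genes.

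PHF8 is a Jumonji C histone demethylase whose PHD finger reads the trimethylated lysine 4 of histone H3 found at active promoters, while the catalytic domain removes repressive methyl marks nearby. Matrix metalloproteinases (MMPs) are zinc enzymes that cleave collagens and other matrix proteins, and the membrane-type enzymes carry this activity on the cell surface. MMP14 and its bound inhibitor TIMP2 together hold the MMP2 proenzyme at the membrane, where it is activated, and the TIMP proteins inhibit the active enzymes. This module is known for its part in the passage of tumor cells through basement membrane and collagen.

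The lists held 20120 to 21506 peaks per replicate. Fold enrichment is the number of ChIP fragments at the summit, the highest point of a peak, over the local background. Its scale differed between lists, since the strongest TSS peak of the median protein-coding target gene reached fold enrichments of 33.4, 19.4 and 18.4 in A, B1 and B2. Each gene was therefore also ranked within its replicate against all target genes, on a percentile scale from 0 for the weakest to 100 for the strongest. The weakest summit that was called held 8, 8 and 10 fragments in A, B1 and B2, and a gene without a peak is one without a summit past the calling cutoffs.

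PHF8 peaks lay at the TSSs of 8 of the 10 genes in all 3 replicates (80.0%), namely MMP2, MMP11, MMP14, MMP15, MMP16, MMP17, TIMP2 and TIMP3. MMP24 and TIMP4 had none at the TSS or over the gene body in any replicate. Of all protein-coding genes, 60.2% were bound by the same definition. The bound genes came from a family that was mostly without a peak, as 6 of the 23 MMP genes (26.1%) were bound, all of them in the list above. None of the 9 MMP genes in the chromosome 11 cluster and none of the 7 other MMP genes (MMP9, MMP19, MMP21, MMP23B, MMP25, MMP26 and MMP28) had a TSS peak in all 3 replicates. TIMP1, a secreted inhibitor outside the list, was bound with fold enrichments of 24.5, 10.7 and 12.5 in A, B1 and B2.

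The promoters of the bound genes and of the cluster differed in their sequence. The sequence was not used to choose the genes, but the choice was not independent of it. Over all protein-coding genes, binding went with CpG-rich start sites, as given below. A difference between genes chosen as bound and as unbound can therefore follow from the choice, and it was not tested. The 150 bases just before the canonical TSS (the start of the transcript that the annotation marks as representative) are shown for MMP15, TIMP2 and TIMP3, read 5′ to 3′ along the gene from the GRCh37 sequence, which is the same build as the hg19 of the peak lists. Capitals mark the GC box core GGGCGG, the TATA box core TATAAA and the AP-1-like letters TGANTCA (N is any base), on either strand. The stretches are MMP15 (chr16:58059508-58059657, plus strand), TIMP2 (chr17:76921470-76921619, minus strand) and TIMP3 (chr22:33197541-33197690, plus strand).
MMP15: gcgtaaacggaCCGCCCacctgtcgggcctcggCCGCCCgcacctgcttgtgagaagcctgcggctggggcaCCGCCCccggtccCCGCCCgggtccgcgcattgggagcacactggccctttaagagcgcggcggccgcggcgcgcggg
TIMP2: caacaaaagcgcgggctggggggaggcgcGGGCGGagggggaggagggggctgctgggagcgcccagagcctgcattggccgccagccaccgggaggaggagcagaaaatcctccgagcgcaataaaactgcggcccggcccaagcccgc
TIMP3: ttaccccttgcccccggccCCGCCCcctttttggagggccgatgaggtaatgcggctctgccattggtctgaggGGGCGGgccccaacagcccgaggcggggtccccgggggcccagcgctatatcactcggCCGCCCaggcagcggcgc

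The matching stretches of the unbound members are MMP24 (chr20:33814343-33814492, plus strand) and TIMP4 (chr3:12200413-12200562, minus strand). They are shown because they held GC boxes as the bound members did, while no peak was called there.
MMP24: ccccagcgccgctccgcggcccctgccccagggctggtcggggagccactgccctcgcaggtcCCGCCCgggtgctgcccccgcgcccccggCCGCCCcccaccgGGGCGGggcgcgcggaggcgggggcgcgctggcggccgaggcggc
TIMP4: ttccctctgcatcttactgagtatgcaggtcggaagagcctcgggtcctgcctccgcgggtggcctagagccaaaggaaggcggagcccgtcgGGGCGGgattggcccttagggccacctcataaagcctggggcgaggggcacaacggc

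For the cluster, the stretch of MMP10 (chr11:102651360-102651509, minus strand) is given. It is shown for its TATA box and AP-1-like letters.
MMP10: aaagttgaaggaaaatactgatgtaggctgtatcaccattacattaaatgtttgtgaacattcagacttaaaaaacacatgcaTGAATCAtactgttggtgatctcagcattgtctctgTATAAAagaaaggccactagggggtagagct

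The GC box letters were found at the members and the TATA and AP-1 letters at most cluster genes. From 250 bp before to 50 bp after the canonical TSS, GGGCGG matched in 10 of 10 members and 0 of 9 cluster genes, against 61.4% of all 19874 protein-coding promoters read. TATAAA matched in 0 of 10 members and 7 of 9 cluster genes, against 9.63% of all promoters. TGANTCA is the site of AP-1 (dimers of Fos and Jun proteins) with any base allowed in the middle. It matched in 0 of 10 members and 7 of 9 cluster genes, against 5.40% of all promoters. Matches were not split by the middle base, which is an A at MMP10. The 8 remaining family genes (the other MMP genes and TIMP1) were mixed, with GGGCGG in 4, TATAAA in 3 and TGANTCA in 2. Those with GGGCGG were the bound TIMP1 and the unbound MMP23B, MMP25 and MMP28. Both strands were searched, and the 3 motifs did not overlap one another. The AP-1 letters began 67 bp before the TSS in both MMP7 and MMP10. The TATA letters began 30 bp before the TSS in MMP7 and 31 bp in MMP10. In MMP20 and MMP8 they began 72 and 110 bp before the TSS, farther up than a TATA box usually lies, and so did those of MMP1. MMP27 held none of the 3 motifs.

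CpG density differed in the same way. Within 250 bp of the TSS, the median GC share was 75.8% in the 10 members and 42.7% in the 9 cluster genes. Bound genes were read at the TSS nearest to their strongest summit and unbound genes where the gene record begins. The position thus depended on the peaks. The CpG observed over expected ratio sets the number of CpG dinucleotides against the number that the C and G content would give, and its median was 0.815 in the members and 0.211 in the cluster. At all protein-coding canonical TSSs the medians were 64.7% and 0.778. The members ranged in this ratio from 0.506 at TIMP4 and 0.603 at MMP14 to 1.00 at MMP17, and the cluster from 0.0889 at MMP1 to 0.419 at MMP27, so the 2 ranges did not overlap at these positions. They did overlap when every gene was read where its gene record begins, since MMP2 then had a ratio of 0.214.

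**Figure D1:**
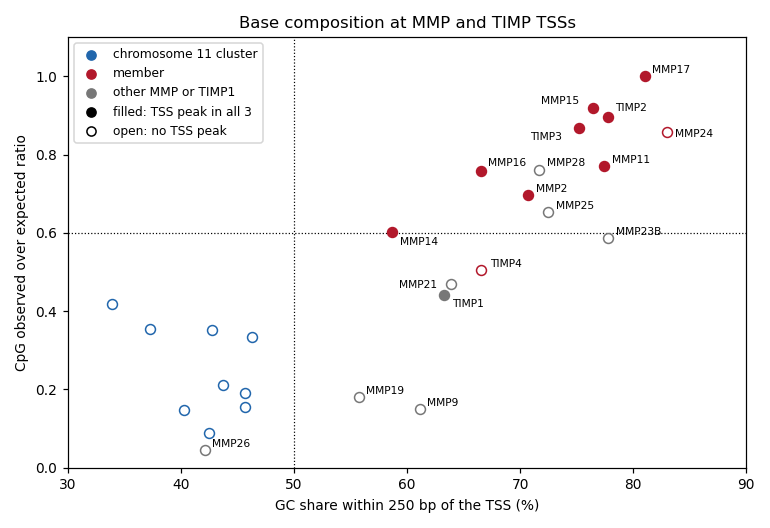
GC share (x axis, %) and CpG observed over expected ratio (y axis) within 250 bp of the TSS of 27 MMP and TIMP genes, one point a gene, filled where a TSS peak was present in all 3 replicates. The dotted lines mark a GC share of 50% and a ratio of 0.6, and the 9 cluster genes lie in the lower left, whereas the unbound MMP24 (83.0%, 0.858) lies among the bound members.

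Of the protein-coding genes whose canonical TSS had a GC share of at least 50% and a ratio of at least 0.6, here called CpG-island-like, 81.2% were bound, and of the others 18.4%. Among the 23 MMP genes, 9 were CpG-island-like and 5 of these were bound, namely MMP2, MMP11, MMP15, MMP16 and MMP17. MMP24, MMP23B, MMP25 and MMP28 were CpG-island-like without a TSS peak in all 3 replicates. Of the 14 remaining MMP genes 1 was bound, MMP14, whose ratio at the canonical TSS was 0.584. MMP14 and MMP23B lay at the limit and changed sides with the TSS read, as the plot of composition shows them at 0.603 and 0.587, while MMP23B had 0.604 at its canonical TSS. The bound inhibitors TIMP2 and TIMP3 were CpG-island-like, whereas the bound TIMP1 (0.433) and the unbound TIMP4 (0.506) were below the limit.

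Enrichment at the bound members was mostly low among PHF8 targets. The strongest TSS peaks of the 8 bound members had fold enrichments between 4.46 and 29.6, and their medians were 15.5, 7.91 and 7.15 in A, B1 and B2. The median over the 8 members of the mean percentile was 11.1, and the median percentiles within A, B1 and B2 were 13.2, 9.73 and 8.09 (SD 2.60, n = 3). For 6 of the 8 genes the percentile was below 25 in all 3 replicates. The same share over all target genes was not computed, but it cannot pass about 25%, since the percentile ranks those genes. With a fold enrichment above 10 asked for in all 3 replicates, 1 of the 10 members (TIMP2) counted as bound, against 49.6% of protein-coding genes.

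**Figure D2:**
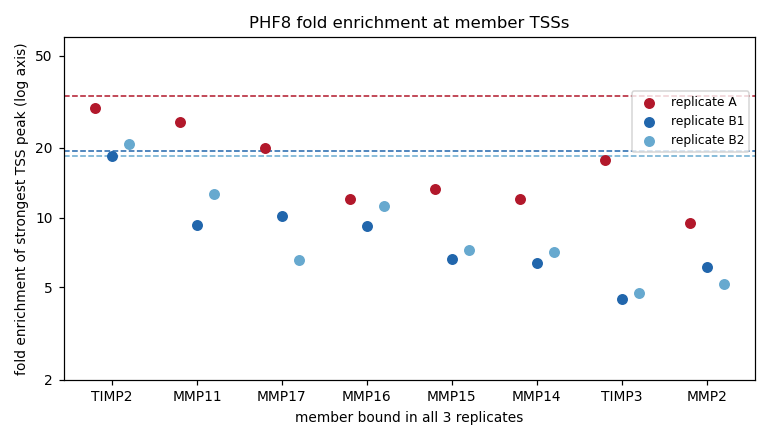
Fold enrichment (log axis) of the strongest TSS peak of each bound member in replicates A, B1 and B2, one point a replicate, with dashed lines at the median over all protein-coding target genes of the replicate (33.4, 19.4 and 18.4). TIMP2 lies near these medians and the other 7 members lie below them in every replicate.

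TIMP2, the inhibitor that pairs with MMP14 in MMP2 activation, had the strongest peak of the set. Fold enrichments of 29.6, 18.4 and 20.7 were measured in A, B1 and B2, which placed it at a percentile of 51.3 ± 9.90 (SD, n = 3). Its range over replicates, 42.8 to 62.1, did not overlap that of any other member. The summits of A, B1 and B2 held 76, 53 and 62 fragments, with 95% Poisson intervals of 59.9 to 95.1, 39.7 to 69.3 and 47.5 to 79.5 that cover counting error only. In A the peak spanned chr17:76921066-76921915, and its summit lay 98 bp downstream of the TSS at 76921469, in the untranslated part of the first exon. In B1 and B2 the summit was 117 and 95 bp downstream. Only 1 of its 8 annotated TSSs carried a peak in all 3 replicates.

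TIMP2 also held 3 weaker intronic peaks in each replicate. One, with its summit 11708 to 11756 bp downstream of an internal annotated TSS, had fold enrichments of 12.0, 5.33 and 4.96 in A, B1 and B2 (chr17:76858288-76858575 in A). Another, about 10 kb upstream of another internal TSS, had fold enrichments of 10.4, 4.89 and 4.53 (chr17:76880094-76880461 in A). TIMP2 and MMP17 were the 2 of 10 members with a peak over the gene body outside their TSS windows in all 3 replicates, a class that held 6.25% of protein-coding genes.

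MMP11, or stromelysin-3, is a secreted enzyme that furin-type convertases activate inside the cell. Its strongest peak reached fold enrichments of 25.9, 9.26 and 12.7 in A, B1 and B2, and its percentile was 25.1 ± 10.2 (SD, n = 3). The A value was the highest, as at every bound member, and its summit of 77 fragments stood against 36 in B1 and 50 in B2. On the log2 scale the A value exceeded the geometric mean of B1 and B2 by 1.26. The median over protein-coding target genes was 0.80, and 91.4% of them had a smaller difference. In A the peak covered chr22:24114702-24115405 with the summit 153 bp downstream of the TSS at 24115036. The summits in B1 and B2 lay 107 and 134 bp downstream. Further regions lay within reach of MMP11 TSSs. One was where the gene record begins and also within 1 kb of a CHCHD10 TSS, with 12.0, 4.50 and 5.18 at its stronger peak, and the other was inside the gene near the starts of shorter annotated transcripts, with 8.48, 3.23 and 2.56. Counted only where its gene record begins, MMP11 fell to a mean percentile of 3.58.

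MMP17, which is held in the membrane by a glycolipid anchor, had fold enrichments of 19.9, 10.2 and 6.59 in A, B1 and B2 and a percentile of 14.8 ± 7.32 (SD, n = 3). The A peak spanned chr12:132312862-132313343, and the summits lay 51 bp downstream, 14 bp upstream and 40 bp upstream of the nearest TSS. Intronic peaks followed downstream, and A, B1 and B2 held 4, 3 and 2 of them. The strongest of them had fold enrichments of 11.2, 7.21 and 6.39, with summits 2261 to 2309 bp from the nearest TSS. Upstream, a small peak of 5.06 in A and 4.40 in B1 was absent from the B2 list.

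MMP15, a membrane-type enzyme with a transmembrane segment, had 1 peak in each replicate and no other over its body. Fold enrichments were 13.3, 6.61 and 7.22 in A, B1 and B2, at a percentile of 7.93 ± 1.87 (SD, n = 3). The peak was narrow, 315, 218 and 289 bp wide against a median of 824, 721 and 673 bp for the strongest peaks of protein-coding target genes. In A it covered chr16:58059655-58059969, with summits 133, 129 and 164 bp downstream of the TSS at 58059658 in A, B1 and B2.

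MMP14, the main activator of MMP2 on the cell surface, was bound at 5 of its 6 annotated TSSs. The strongest peak had fold enrichments of 12.0, 6.35 and 7.08 in A, B1 and B2 and a percentile of 6.83 ± 1.52 (SD, n = 3). In A it spanned chr14:23305749-23306691, and the summits lay 112, 83 and 113 bp downstream of the nearest TSS. A chain of weaker peaks ran into the gene. In all, 4, 3 and 5 peaks overlapped MMP14 in A, B1 and B2. Their summits lay up to 1392 bp past the nearest TSS, and besides the strongest their fold enrichments were 2.84 to 6.90.

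MMP2, or gelatinase A, the proenzyme that the MMP14 and TIMP2 complex presents, had the lowest mean percentile, 3.89 ± 1.36 (SD, n = 3). Its strongest peak reached fold enrichments of 9.52, 6.15 and 5.18 in A, B1 and B2, from summits of 28, 19 and 18 fragments. The 95% Poisson intervals of these counts were 18.6 to 40.5, 11.4 to 29.7 and 10.7 to 28.4. The counts were not scaled between lists, and the B2 count came from another peak than those of A and B1. There were 2 peaks in every replicate. The first (chr16:55513082-55513688 in A) covered the canonical TSS at 55513110 in A and began 56 and 89 bp past it in B1 and B2. The second (chr16:55514076-55514373 in A) had its summit 204, 179 and 187 bp upstream of an internal TSS. In B2 the second was the stronger, at 5.18 against 4.79. Of the 8 annotated TSSs of MMP2, 4 carried a peak in all 3 replicates. The first base of the gene record, at chr16:55423612, was not among them, and under a definition that used only that position MMP2 was not bound.

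TIMP3, the inhibitor that binds to the extracellular matrix, had the largest difference in fold enrichment between A and the B replicates among the members. Fold enrichments were 17.7, 4.46 and 4.74 in A, B1 and B2, and its percentile fell from 16.7 in A to 1.01 and 1.67 in B1 and B2 (mean 6.47 ± 8.90, SD, n = 3). On the log2 scale the A value exceeded the geometric mean of B1 and B2 by 1.94, against a median of 0.80 over protein-coding target genes, and 99.7% of those had a smaller difference. The summit held 48, 30 and 29 fragments in A, B1 and B2. The local background at this summit was 1.77 fragments in A and 5.96 and 5.33 in B1 and B2, where it ranked above 99.5% and 99.3% of target genes. In percentiles the spread of MMP11 (SD 10.2) and of TIMP2 (SD 9.90) was wider. By fragments alone the percentiles of TIMP3 were 15.5, 14.1 and 13.3. B1 and B2 share their letter with 1 input library, and the part of the inputs in this difference was not tested. The peak lay at the same place in all 3 lists, with summits 142, 105 and 159 bp downstream of the single TSS at chr22:33197691.

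In the order of mean percentile, TIMP2 (51.3) came first, followed by MMP11 (25.1), MMP17 (14.8), MMP16 (14.3), MMP15 (7.93), MMP14 (6.83), TIMP3 (6.47) and MMP2 (3.89). Apart from TIMP2 and MMP11, whose ranges over replicates were separate, each gene overlapped its neighbor in this order. MMP2 and MMP14 had separate ranges, 2.34 to 4.83 and 5.08 to 7.88. By summit fragments neither of these pairs was separate. In A, B1 and B2 the percentiles were then 4.91, 4.43 and 3.53 for MMP2 and 6.91, 3.62 and 6.08 for MMP14. TIMP2 went down to 34.9 in A and MMP11 up to 36.8 in B2.

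**Figure D3:**
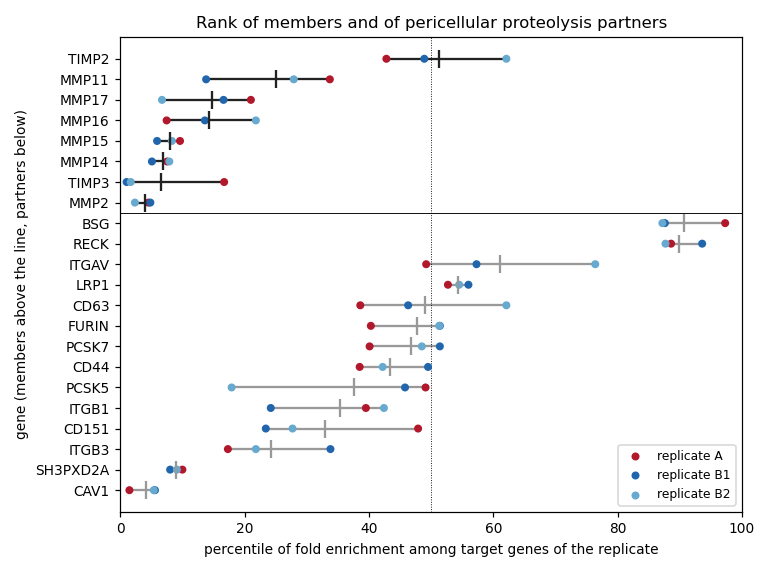
Percentile of fold enrichment among the target genes of each replicate (x axis, 0 to 100) for the 8 bound members above the line and the 14 bound partner genes below it. Points are replicates, the bar spans their range and the tick is the mean, and TIMP2 is the only member whose range reaches past 50.

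MMP16, a membrane-type enzyme on chromosome 8, was bound at all 4 of its annotated TSSs. Its fold enrichments of 12.0, 9.21 and 11.2 in A, B1 and B2 corresponded to a percentile of 14.3 ± 7.21 (SD, n = 3). In fold enrichment A was closest to B1 and B2 at this member, with a log2 difference of 0.24 that 6.56% of targets fell below. In percentiles its range, 7.45 to 21.8, was wider than those of MMP2, MMP14 and MMP15. The enrichment was broad, 1622 bp in A in 1 peak, whereas B1 and B2 split the region into 2 and 3 peaks. A TSS of a long noncoding RNA on the opposite strand lay within 1 kb of the same peaks, so the signal of both genes cannot be told apart.

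Summits of the members were close to a TSS and mostly past it. Of the 24 strongest summits (8 bound members, each in 3 replicates), 23 lay within 200 bp of the nearest annotated TSS and 18 lay downstream of it. The same shares over all target genes were not computed. A TSS within 1 kb was required of every such peak, so closeness is partly built in and is not given as a trait of the members. TIMP2, TIMP3, MMP11, MMP14 and MMP15 had the summit 83 to 164 bp downstream in every replicate, whereas MMP16 and MMP17 had it on either side. Peaks of MMP2, MMP14, MMP15, MMP17, TIMP2 and TIMP3 had no TSS of another gene within 1 kb.

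**Figure D4:**
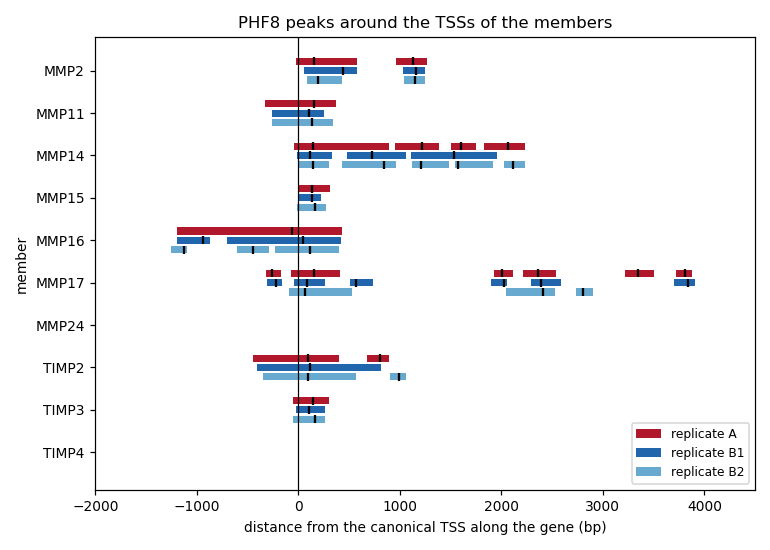
PHF8 peaks (bars) and their summits (black ticks) in replicates A, B1 and B2 by distance from the canonical TSS along each member (x axis, bp, positive is into the gene). Peaks begin near the TSS in 8 members, run on into MMP14 and MMP17, and are absent from MMP24 and TIMP4; peaks beyond the axis limits are not drawn.

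MMP24 and TIMP4 had no peak near their TSSs. The nearest peak to the single TSS of MMP24, a membrane-type enzyme best known from neurons, was 50.8 to 51.1 kb away, 487 to 797 bp past the end of the gene. That peak lay at the start of MMP24OS on the opposite strand, with fold enrichments of 26.2, 10.6 and 5.64 in A, B1 and B2. The nearest peak to TIMP4 was 128 to 129 kb away, near a PPARG TSS. TIMP1, TIMP3 and TIMP4 lie on the opposite strand inside the synapsin genes SYN1, SYN3 and SYN2, which encode synaptic vesicle proteins. None of the 3 synapsin genes was bound at its own TSSs, and the peaks over SYN1 and SYN3 were those at TIMP1 and TIMP3.

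The chromosome 11 cluster holds the collagenases MMP1, MMP8 and MMP13, the stromelysins MMP3 and MMP10, the matrilysin MMP7, the macrophage elastase MMP12, the enamel enzyme MMP20 and MMP27. These genes span chr11:102391239-102826461 and held no peak in any replicate. The stretch without a peak was 638 kb in A and B1 and 639 kb in B2, from the TSS region of TMEM123 to that of DCUN1D5. The TMEM123 peak had fold enrichments of 25.7, 14.3 and 9.86 and the DCUN1D5 peak 25.3, 14.7 and 13.1. The 9 cluster genes were the protein-coding genes wholly inside this stretch. Stretches of at least this length made up 4.66% of all stretches between neighboring peaks in A, 4.85% in B1 and 5.00% in B2. Distances from a cluster TSS to the nearest peak ran from 77.5 kb at MMP7 to 311 kb at MMP10.

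Other unbound MMP genes had peaks closer by. MMP25, a glycolipid-anchored enzyme of leukocytes that is also of the membrane type but not among the 10 genes, came closest to the 1 kb limit from outside, with peaks 2.09 to 2.25 kb from its nearest TSS and fold enrichments of 29.6, 13.6 and 15.4. That peak (chr16:3108960-3109783 in A) lay over the end of MMP25, where MMP25-AS1 starts on the other strand, in reach of a TSS of that gene. Among the bound members, MMP2 had the largest gap between a TSS and its nearest peak, 0, 56 and 89 bp in A, B1 and B2, well inside the limit. MMP19 had a peak 5.13 to 5.25 kb from its TSSs with fold enrichments of 8.60, 6.88 and 6.04. MMP9 differed between replicates, with a peak 12.8 kb away in A and none nearer than 36.0 and 36.1 kb in B1 and B2.

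**Figure D5:**
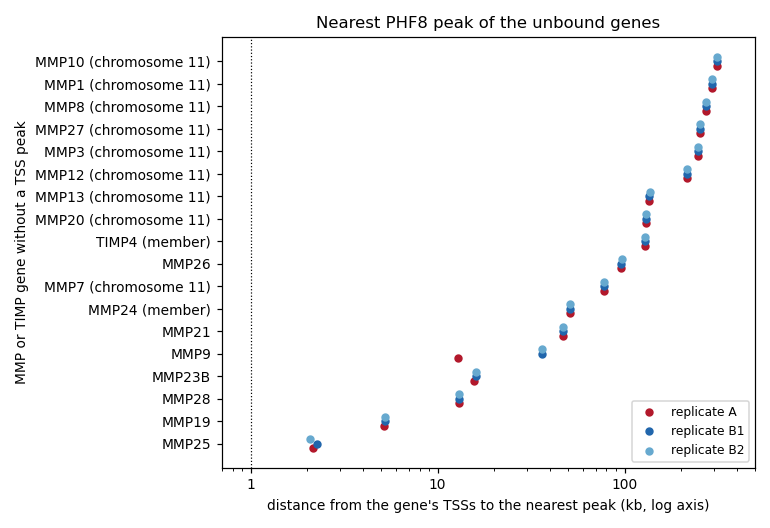
Distance (kb, log axis) from the annotated TSSs of each unbound MMP or TIMP gene to the nearest PHF8 peak in replicates A, B1 and B2, with a dotted line at the limit of 1 kb. The cluster genes lie 77.5 to 311 kb from a peak, MMP24 about 51 kb and MMP25 about 2 kb.

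Of 15 partner genes picked from pericellular MMP2 activation and its control, 14 (93.3%) were bound, against 60.2% of all protein-coding genes. The partners were listed with earlier results of these data known, so this count was not tested either. The proprotein convertases, which cut the inhibitory propeptide from MMP14 and MMP11, were bound in 3 of 4 cases. FURIN ranked at 47.7 ± 6.35, PCSK7 at 46.7 ± 5.88 and PCSK5 at 37.6 ± 17.2 (mean percentile ± SD, n = 3). Of the 9 annotated TSSs of FURIN, 3 carried a peak in all 3 replicates. Under definitions that used only its canonical TSS or only the first base of its gene record, FURIN was not bound. PCSK6 had no TSS peak, and its intronic peak (49.3, 26.8 and 26.9 in A, B1 and B2) lay at the start of SNRPA1. RECK, a membrane-anchored inhibitor of MMP14 and MMP2, ranked at 89.9 ± 3.17 with fold enrichments of 50.9, 33.9 and 28.9. BSG, or CD147, an inducer of MMPs, ranked at 90.7 ± 5.74 with 60.8, 30.2 and 28.5. Both ranges lay above those of all bound members.

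Receptors and scaffolds that gather these enzymes at the cell surface all ranked below RECK and BSG, over a wide range. ITGAV ranked at 61.0, LRP1, which clears MMP and TIMP complexes from the surface, at 54.4, CD63, which binds TIMP1, at 49.0, CD44, which docks MMP14, at 43.4, ITGB1 at 35.4, CD151 at 33.0 and ITGB3 at 24.3. SH3PXD2A, the invadopodium scaffold TKS5, ranked at 9.03 and CAV1, the caveolar coat protein, at 4.14, and for both the percentile was below 25 in all 3 replicates. The median mean percentile of the 14 bound partners was 45.0, beside 11.1 for the 8 bound members, a difference that was not tested because the members were chosen on these peaks.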

How the data were processed

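PHF8 ChIP-seq peak lists of 3 replicates of SKMEL-147 cells were analysed. Going by the labels and by the published methods, reads were processed with bcl2fastq, Bowtie2 and Picard on hg19, and narrow peaks were called with MACS on single replicates, each against input. How duplicates were handled and how many reads were sequenced is not given in the sources used here. For each peak the authors deposited a fold enrichment (a linear ratio over local background), a p-value and a q-value as −log10 values, a score derived from the q-value and a summit position. No peak was removed by the study's cutoffs (enrichment over 1.5, q-value read as under 0.05).

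TSSs came from every transcript of GENCODE 44 in its GRCh37 version, and any overlap of at least 1 bp between a peak and a TSS window counted. The strongest TSS peak of a gene was ranked among genes of any type bound in all 3 replicates, with ties counted at their midpoint. Summit fragments and local background were solved from the deposited fold enrichment, taken as (fragments + 1) over (background + 1), and the deposited p-value of the Poisson test. Only whole numbers of fragments were tried. For 100% of peaks the best one gave the deposited −log10 p-value within a tolerance of 0.001. Poisson intervals (95%) are exact and cover counting error only. Sequence composition was read from GRCh37 with pysam 0.24.0, at the TSS nearest to the strongest summit or, without a peak, where the gene record begins. Scripts ran in Python 3.11.15 with pandas 2.3.3, numpy 2.4.6 and scipy 1.17.1 and were tested on simulated data.

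The members and the gene lists were chosen with earlier results of these data known, and the named genes were all genes on those lists (members, chromosome 11 cluster, other family genes and partners) together with genes that overlap a member or share its peak. The members were not tested. Some promoter sequences are not reported here. Alternatives covered the TSS window, the TSS choice, peak cutoffs, left-out replicates and the ranked measure. No comparison between conditions was possible with 1 group.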

Additional observations from a re-analysis of the deposited data

How the results depend on the processing

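The bound members numbered 7 or 8 and the bound MMP genes 5 or 6 under every alternative but one. These were windows cut to 500 bp or widened to 2 kb, counting summits in place of peaks, the first base of the gene record as the only TSS, protein-coding transcripts, a peak in at least 2 replicates, q-values under 0.001, an enrichment over 4, each replicate left out and, chosen after seeing the data, the canonical TSS alone. With a fold enrichment above 10, members fell to 1 and MMP genes to 0. The cluster stayed at 0 and the partners at 12 to 14 throughout. Leaving out 1 replicate gave 8 members in each case, and this setting, like the wider window and the peak in at least 2 replicates, can only add genes. The median over bound members of the mean percentile (11.1) moved to 7.91 with the first base of the gene record, where MMP2 dropped out and MMP11 was read at its weaker upstream peak. It was between 9.56 and 12.1 with 1 replicate left out. The mean percentile of TIMP3 was 1.40 without A and 14.3 by recovered fragments. The median CpG ratio of the members (0.815) was 0.759 within 500 bp and 0.781 where the gene record begins, and that of the cluster (0.211) was 0.225 within 500 bp. Of 95 alternative percentiles of single members, 3 moved by more than 1 SD over replicates. No paired analysis was possible because the result comes from no test and 1 group has peak lists. Peak lists hold no signal below the calling cutoffs, so weak binding at MMP24, TIMP4 or the cluster was not detectable here.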
